A study of Arabidopsis thaliana with 18 samples.

Results

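Glutamine synthetases and glutamate synthases are the enzymes that carry ammonium into amino acids, and the data were read here for the 9 Arabidopsis genes that encode them. The members are the 5 genes of cytosolic glutamine synthetase (GS1), GLN1;1 (AT5G37600), GLN1;2 (AT1G66200), GLN1;3 (AT3G17820), GLN1;4 (AT5G16570) and GLN1;5 (AT1G48470), the gene of the plastid enzyme GS2 (AT5G35630), the ferredoxin-dependent glutamate synthases GLU1 (AT5G04140) and GLU2 (AT2G41220), and the NADH-dependent glutamate synthase GLT1 (AT5G53460). They were chosen as a gene family by locus, with no threshold on a measured value, and are 9 of the 26716 genes that the array probes could be matched to. On chromosome 5 lie 5 of the 9 genes, on chromosome 1 lie 2, and chromosomes 2 and 3 hold 1 each.

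Whole shoots of complementation lines were hybridized to one-colour Agilent microarrays in 6 groups of 3 arrays, 18 in all. Both lines are in the ao null background and carry the AO gene, which encodes L-aspartate oxidase of NAD biosynthesis, under its own promoter, which is intact in AOpro(wt)-AO plants and mutated at the binding sequence of NLP transcription factors in AOpro(mut)-AO plants. The stages were before N starvation treatment (17 days of hydroponic growth in the light according to the growth protocol, where the study's methods give a longer time on the medium), after 3 days in N-free solution, and after a further 24 h with 10 mM KNO3. According to the methods 1 transgenic line stands for each construct, and each replicate pooled the shoots of several seedlings. Plants kept on N to the same age are not among the arrays, so a change between stages includes any change with age.

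In the glutamine synthetase reaction ammonium is joined to glutamate at the cost of ATP, and glutamate synthase then passes the amide nitrogen of glutamine to 2-oxoglutarate, which returns glutamate. In leaves the chloroplast pair of GS2 and ferredoxin-dependent glutamate synthase takes up ammonium from nitrate reduction and from photorespiration. The cytosolic enzymes serve primary assimilation in roots and, in shoots, the making of glutamine for transport, above all when nitrogen is moved out of leaves.

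A level is given as the log2 of the background-corrected signal of a probe minus the log2 of the 75th percentile of its array, so that 0 is that percentile, and a log2 difference is the difference between the means of 3 arrays each. Levels of different probes are not comparable, so that genes are compared only by their differences. A gene is represented by its brightest probe unless another is named. A member was called when its adjusted p was 0.05 or less in a limma model of the 6 group means, with Benjamini-Hochberg adjustment over all 29416 probes tested, and the interaction, which is the change in AOpro(mut)-AO minus the change in AOpro(wt)-AO plants, was called at an unadjusted p of 0.001 or less.

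All 18 probes of the 9 genes were well above background on all 18 arrays. Between 72.6% and 76.1% of all spots passed that limit on an array, the 75th percentile lay between 2214 and 3111, and 0 spots were saturated, so that the number of arrays limits the precision. The 4 shoot markers were above background on every array, and of 6 root markers 3 (CASP1, CASP2 and PYK10) were so on all 18 arrays, LRX1 on 8, EXP7 on 1 and IRT1 on 0, with a summed linear level of 2.79 to 8.62 over the 18 arrays. The summed linear level of 4 seed markers was 0.0317 to 0.322 before N starvation and 0.00587 to 0.0253 at the later stages. That of 3 flower markers was 0.041 to 0.0487 in AOpro(wt)-AO and 0.109 to 0.156 in AOpro(mut)-AO plants before N starvation, 0.125 to 0.217 and 0.264 to 0.384 after it, and 0.121 to 0.208 and 0.36 to 0.46 after resupply. Of the 3 flower markers 2 were called higher in AOpro(mut)-AO plants at each stage (19.2%, 26.3% and 25.6% of all genes), and 1 was called lower before N starvation (19.5%). The part of such tissue differences in the results was not tested. In these shoots less RNA per cell and fewer cells of a type cannot be told apart. AO itself was lower in AOpro(mut)-AO plants by a log2 difference of -2.85, -2.38 and -2.12 at the 3 stages.

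With N starvation of AOpro(wt)-AO plants 2 of the cytosolic glutamine synthetase genes rose more than any other member, GLN1;4 4.37-fold and GLN1;1 2.5-fold, and with KNO3 both fell again, 3.66- and 2.22-fold. The plastid GS2, the ferredoxin-dependent GLU1 and the NADH-dependent GLT1 fell with N starvation in that line, 1.58-, 1.34- and 1.59-fold. In AOpro(mut)-AO plants the same cytosolic genes rose 2.46- and 1.92-fold, and neither glutamate synthase that fell in the other line was called. GS2 fell 1.20-fold in AOpro(mut)-AO plants, a call that was lost under several other settings. Between the lines GLT1 was 2.34- to 3.52-fold higher in AOpro(mut)-AO plants at every stage, and the 2 starvation-raised cytosolic genes were lower. The test of the difference between the lines in these changes passed for 1 of 9 members, GLN1;4, with both N starvation (4.02% of all genes) and resupply (3.84%).

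**Figure D1:**
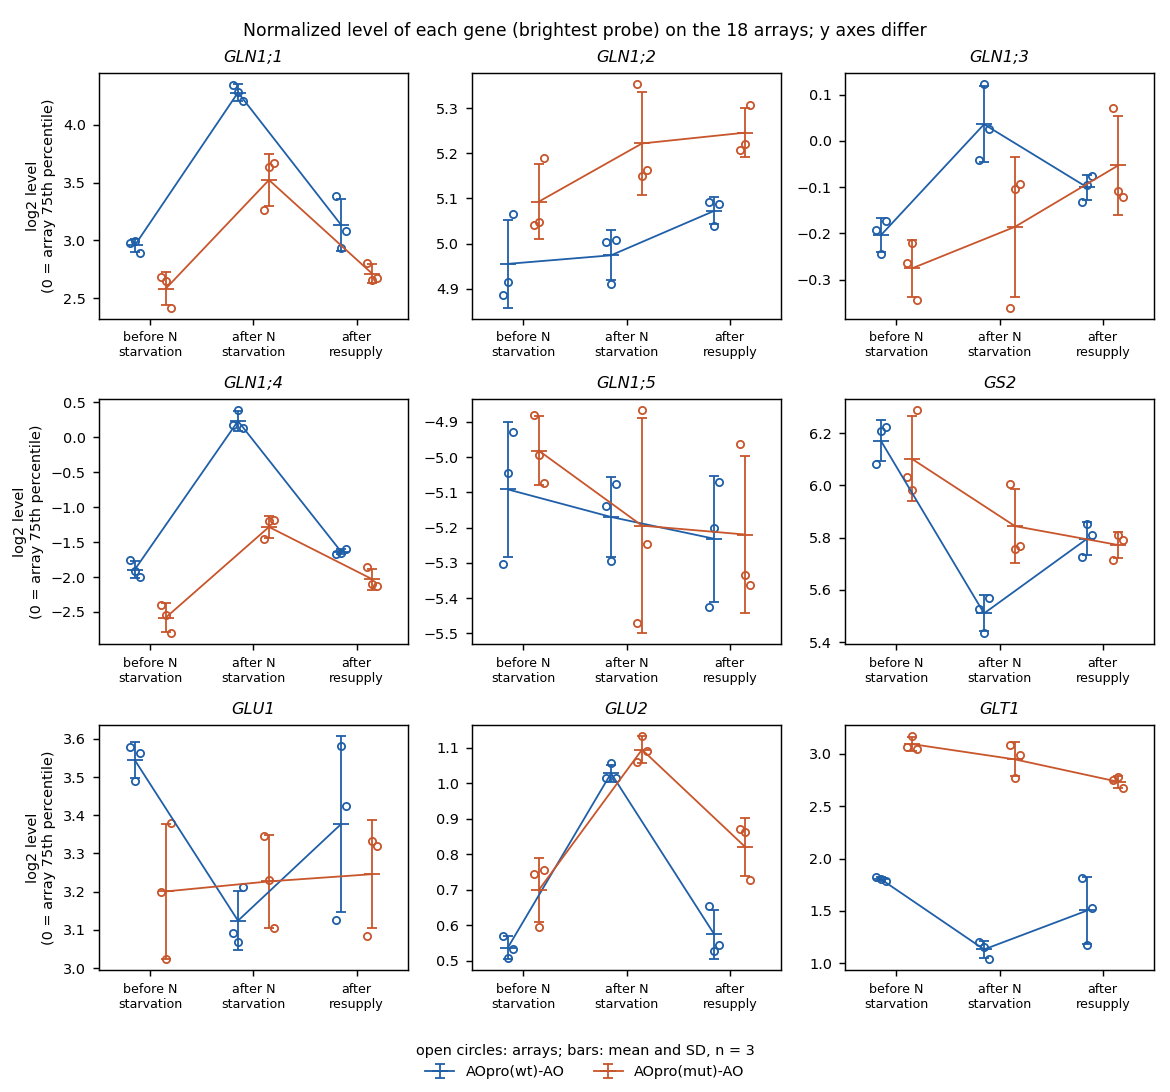
Normalized log2 level of each of the 9 genes (y axis, 0 is the 75th percentile of the array, scales differ between panels) at the 3 stages (x axis) in AOpro(wt)-AO (blue) and AOpro(mut)-AO (orange) plants, with a circle for each array and bars for the mean and SD of 3 arrays. The peak after N starvation in the first cytosolic gene reaches 4.28 in blue and 3.52 in orange, and the orange points of GLT1 lie above all blue points of that gene at every stage.

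With N starvation in AOpro(wt)-AO plants 7 of the 9 members were called, 4 higher and 3 lower, while 59.9% of all genes tested were called, 28% higher and 31.9% lower. The same treatment of AOpro(mut)-AO plants called 4, of which 3 were higher and 1 lower, against 41.4% of all genes, 17.8% higher and 23.6% lower. With this many genes called, the number of called members lies near the background in both lines, and the members are described by the size of their changes. At a log2 difference of at least 1 besides the adjusted p, 2 members passed in AOpro(wt)-AO plants (4.75% of all genes) and 1 in AOpro(mut)-AO plants (2.44%).

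With KNO3 resupply 5 members were called in AOpro(wt)-AO plants, 2 higher and 3 lower, against 48.3% of all genes, 23.3% higher and 25% lower. Among AOpro(mut)-AO plants 3 members were called, all lower, where 27.4% of all genes were called, 14.6% higher and 12.9% lower. Past a log2 difference of 1 there were 2 members in AOpro(wt)-AO plants (4.22% of all genes) and 0 in AOpro(mut)-AO plants (1.44%), in which 3 members had an unadjusted p of 0.05 or less. Since the starved arrays of a line enter both its starvation and its resupply comparison, the values of these are only set side by side.

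**Figure D2:**
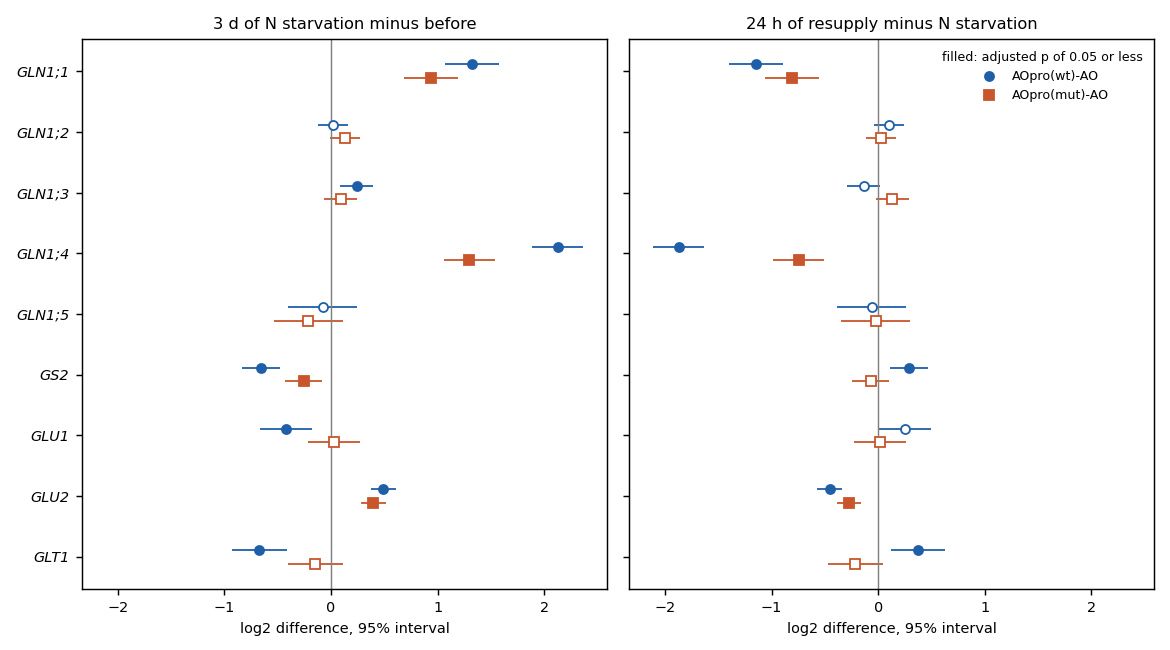
Fitted log2 difference with its 95% interval (x axis) for each member (y axis) with 3 days of N starvation (left) and with 24 h of KNO3 after it (right), in AOpro(wt)-AO (blue circles) and AOpro(mut)-AO (orange squares) plants, filled where the adjusted p was 0.05 or less. The 2 outermost blue points on either side are the same 2 cytosolic glutamine synthetase genes, with 2.13 and 1.32 on the left and -1.87 and -1.15 on the right.

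GLN1;1 encodes a GS1 isoform of high affinity for ammonium. Its level before N starvation was 2.98, 2.99 and 2.89 on the 3 arrays of AOpro(wt)-AO plants and 2.68, 2.65 and 2.42 on those of AOpro(mut)-AO plants. After 3 days without N it was 4.35, 4.28 and 4.21 in AOpro(wt)-AO and 3.26, 3.63 and 3.67 in AOpro(mut)-AO plants. After resupply the levels were 3.38, 2.93 and 3.08 in AOpro(wt)-AO and 2.81, 2.65 and 2.67 in AOpro(mut)-AO plants. The starved arrays of each line lay above all other arrays of that line, and at each stage the lines did not overlap.

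The rise with N starvation was 1.32 (SE 0.12, adjusted p = 9.07e-07) in AOpro(wt)-AO and 0.94 (SE 0.12, adjusted p = 6.31e-05) in AOpro(mut)-AO plants, as log2 differences. KNO3 lowered the gene by a log2 difference of -1.15 (adjusted p = 6.55e-06) and -0.81 (adjusted p = 0.000394), after which the resupplied plants differed from unstarved ones by 0.18 (adjusted p = 0.251) and 0.13 (adjusted p = 0.435). In AOpro(wt)-AO plants probe 3 of the gene stayed above the unstarved level by 0.40 (adjusted p = 0.0189). Probe 4 had means of -0.43 before N starvation and -0.04 after resupply in that line, with no overlap of the arrays. Probe 2 had 1.45 and 1.74, with overlap. The 4 probes of the gene followed each other over the 18 arrays (Pearson's r with the brightest probe 0.976 to 0.991) and gave rises of 1.32 to 1.69 and of 0.94 to 1.26 in the lines.

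Between the lines the log2 difference of this gene was -0.37 (adjusted p = 0.0225) before N starvation, -0.76 (adjusted p = 0.000105) after it and -0.42 (adjusted p = 0.00944) after resupply. The first of these was lost when replicate 1 (-0.36, adjusted p = 0.0594) or replicate 2 (-0.36, adjusted p = 0.0668) of AOpro(wt)-AO plants or replicate 3 of AOpro(mut)-AO plants (-0.29, adjusted p = 0.0903) was left out. Probe 3 gave -0.25 (adjusted p = 0.13). The unstarved means were 1.45 and 0.85 on probe 2 and -0.43 and -0.94 on probe 4, AOpro(wt)-AO plants first. With the slide, which held arrays of several groups, as a block the difference on the brightest probe was -0.42 (adjusted p = 0.0138), and on the 2 slides with both unstarved groups it was -0.48 and -0.30. The interaction was -0.38 (adjusted p = 0.17) with N starvation and 0.34 (adjusted p = 0.253) with resupply, so that a difference between the lines in its rise was not called.

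GLN1;4 encodes the other GS1 isoform of high affinity and had the largest changes of the 9 genes with N starvation in both lines. Before N starvation its level was -1.76, -1.92 and -2.00 in AOpro(wt)-AO and -2.40, -2.54 and -2.81 in AOpro(mut)-AO plants. After N starvation it was 0.18, 0.39 and 0.13 in AOpro(wt)-AO against -1.46, -1.20 and -1.19 in AOpro(mut)-AO plants. With KNO3 the levels were -1.67, -1.65 and -1.60 in AOpro(wt)-AO and -1.85, -2.11 and -2.13 in AOpro(mut)-AO plants. The starved groups are the highest of each line, no array of one line overlapped the other at the same stage, and starved AOpro(mut)-AO plants lay below starved AOpro(wt)-AO plants on every array but above all other groups.

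Its log2 difference with N starvation was 2.13 (SE 0.11, adjusted p = 2.14e-08) in AOpro(wt)-AO plants. The rise in AOpro(mut)-AO plants was 2.46-fold, with a 95% interval of the log2 difference of 1.06 to 1.54 (adjusted p = 7.26e-06). The interaction of -0.83 (95% interval -1.17 to -0.49, unadjusted p = 0.000125, adjusted p = 0.0106) passed. With KNO3 it fell by 1.87 on the log2 scale (adjusted p = 7.37e-08) in AOpro(wt)-AO and by 0.75 (adjusted p = 0.000482) in AOpro(mut)-AO plants, and the interaction of 1.12 (95% interval 0.78 to 1.46, unadjusted p = 5.11e-06, adjusted p = 0.00209) passed as well. Both interactions use the starved arrays of both lines and are not separate evidence.

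The gene remained 0.55 above its unstarved log2 level in AOpro(mut)-AO plants after resupply (adjusted p = 0.0026), and 0.25 (adjusted p = 0.0859) in AOpro(wt)-AO plants. Between the lines its log2 difference was -0.69 (adjusted p = 0.000252) before N starvation, -1.52 (adjusted p = 7.39e-08) after it and -0.39 (adjusted p = 0.0109) after resupply. After N starvation the difference was -1.64 to -1.32 on the 3 slides that held both groups, and with the slide as a block it was -1.52 (adjusted p = 3.22e-06). With normexp background correction the difference before N starvation was -0.48 (adjusted p = 0.05001), that after resupply -0.40 (adjusted p = 0.0915) and that of resupplied to unstarved AOpro(mut)-AO plants 0.37 (adjusted p = 0.146). A single probe measures this gene.

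The lines were compared at each stage for all 9 members. Before N starvation 5 were called, 2 higher and 3 lower in AOpro(mut)-AO plants, against 38.7% of all genes, 19.2% higher and 19.5% lower. After N starvation 6 were called, 3 in each direction, against 52.1% of all genes, 26.3% higher and 25.7% lower. After resupply 5 were called, 3 higher and 2 lower, against 47.4%, 25.6% higher and 21.8% lower. These counts too lie near the background. Past a log2 difference of 1 there were 1, 2 and 1 members, against 5.77%, 7.17% and 6.9% of all genes.

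**Figure D3:**
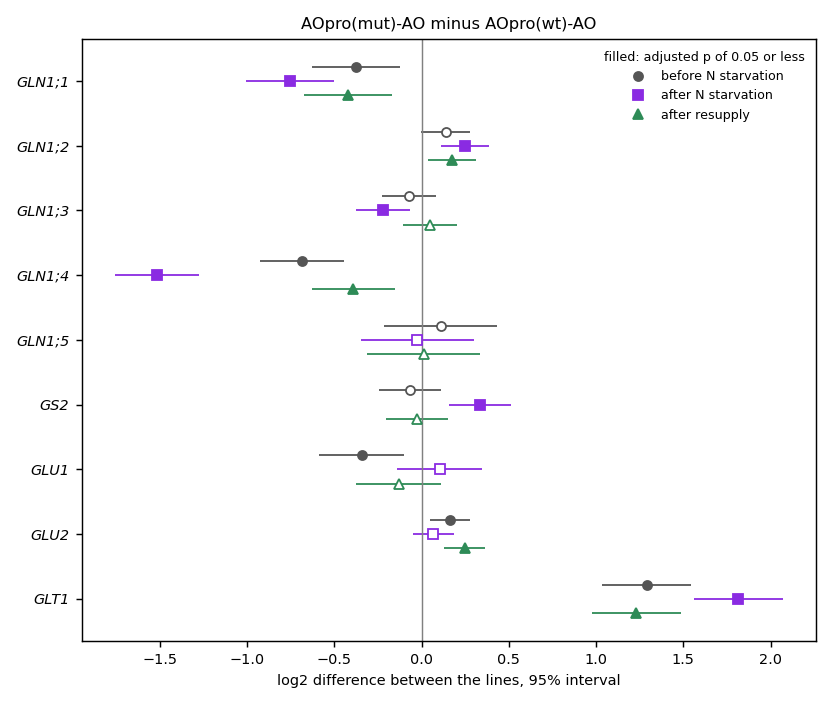
Fitted log2 difference between AOpro(mut)-AO and AOpro(wt)-AO plants with its 95% interval (x axis) for each member (y axis) before N starvation (circles), after it (squares) and after resupply (triangles), filled where the adjusted p was 0.05 or less. GLT1 stands at 1.29, 1.82 and 1.23, and the lowest point is -1.52 after N starvation.

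GLN1;2, a GS1 isoform of low affinity for ammonium, was measured by 3 probes that did not give the same picture. On the brightest its level lay between 4.89 and 5.07 before N starvation, between 4.91 and 5.01 after it and between 5.04 and 5.09 after resupply in AOpro(wt)-AO plants. The ranges in AOpro(mut)-AO plants were 5.04 to 5.19, 5.15 to 5.35 and 5.21 to 5.31. The lines did not overlap after N starvation or after resupply, and the changes with N starvation were 0.02 (adjusted p = 0.822) and 0.13 (adjusted p = 0.134) as log2 differences.

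Probe 3 of this gene, the dimmest, had -0.08, -0.08 and -0.11 before and 0.61, 0.83 and 0.68 after N starvation in AOpro(wt)-AO plants, a rise of 0.79 (adjusted p = 7.85e-06). It went in AOpro(mut)-AO plants from -0.04, -0.09 and 0.04 to 0.56, 0.41 and 0.31, a rise of 0.46 (adjusted p = 0.00144). Over the 18 arrays its r with the brightest probe was 0.0908, where that of probe 2 was 0.790. Probes 2 and 3 are listed under 1 transcript of the gene and the brightest under another, and which transcripts or related genes each of them reads was not tested, since the probe sequences were not used here.

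The difference between the lines after N starvation therefore turned with the probe, at 0.25 (adjusted p = 0.00582) on the brightest, 0.23 (adjusted p = 0.0119) on probe 2 and -0.27 (adjusted p = 0.0224) on probe 3. After resupply the brightest probe gave 0.17 (adjusted p = 0.0434), a call that was lost with any single array of these 6 left out (0.14 to 0.19, adjusted p 0.056 to 0.145). Under quantile normalization the brightest probe rose with N starvation by 0.28 (adjusted p = 0.000119) and 0.25 (adjusted p = 0.000689) in the lines, and the difference after N starvation fell to 0.11 (adjusted p = 0.0585).

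GLN1;3, the other isoform of low affinity, changed little. In AOpro(wt)-AO plants its level was -0.19, -0.25 and -0.17 before and -0.04, 0.12 and 0.03 after N starvation, a rise of 0.24 (adjusted p = 0.0113) that was 0.20 (adjusted p = 0.0541) without starved replicate 2. In starved AOpro(mut)-AO plants the levels were -0.36, -0.10 and -0.09, which is lower than in starved AOpro(wt)-AO plants by a log2 difference of -0.22 (adjusted p = 0.0205). Without starved AOpro(wt)-AO replicate 2 this was -0.18 (adjusted p = 0.0867), and without starved AOpro(mut)-AO replicate 1 it was -0.13 (adjusted p = 0.114). The resupplied AOpro(mut)-AO plants were above unstarved ones by 0.22 (adjusted p = 0.0321), which was 0.18 (adjusted p = 0.136) with the slide as a block and was not called without replicate 1 (0.23, adjusted p = 0.0671) or 3 (0.19, adjusted p = 0.108) of the unstarved or replicate 1 (0.16, adjusted p = 0.135) of the resupplied group.

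GLN1;5 is known for its transcripts in seeds. Its level lay between -5.47 and -4.87 in all groups, all neighbouring groups overlapped, and it was not called in any of the 11 comparisons. The intervals of its log2 difference were -0.40 to 0.25 with N starvation in AOpro(wt)-AO plants and -0.54 to 0.11 in AOpro(mut)-AO plants.

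GS2, the glutamine synthetase of plastids, moved against the starvation-raised cytosolic genes. Its level in AOpro(wt)-AO plants was 6.08, 6.21 and 6.22 before N starvation, 5.53, 5.43 and 5.57 after it, and 5.73, 5.85 and 5.81 after resupply. Those of AOpro(mut)-AO plants were 6.03, 5.98 and 6.29, then 6.01, 5.76 and 5.77, then 5.71, 5.81 and 5.79. Starved AOpro(wt)-AO plants were below every other array of the series, while the starved and unstarved arrays of AOpro(mut)-AO plants overlapped.

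The log2 difference with N starvation was -0.66 (SE 0.08, adjusted p = 1.49e-05) in AOpro(wt)-AO and -0.26 (SE 0.08, adjusted p = 0.0238) in AOpro(mut)-AO plants. The second was lost with the slide as a block (-0.24, adjusted p = 0.058) and without unstarved replicate 3 (-0.16, adjusted p = 0.117), starved replicate 2 (-0.21, adjusted p = 0.0947) or starved replicate 3 (-0.22, adjusted p = 0.0893). It was also lost under normexp background correction (-0.21, adjusted p = 0.191), with only the arrays compared (-0.26, adjusted p = 0.122) and on the dimmer probe (-0.29, adjusted p = 0.0546). The interaction with N starvation was 0.40 (95% interval 0.15 to 0.65, unadjusted p = 0.00396, adjusted p = 0.0528) and was not called. It passed with array weights (0.44, unadjusted p = 0.000398) and without unstarved AOpro(mut)-AO replicate 3 (0.50, unadjusted p = 0.000328).

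After KNO3 the gene rose by 0.29 (adjusted p = 0.0114) in AOpro(wt)-AO plants, and its difference in AOpro(mut)-AO plants was -0.07 (adjusted p = 0.553). The rise in AOpro(wt)-AO plants was 0.05 (adjusted p = 0.406) under quantile normalization. Resupplied plants remained below unstarved ones by -0.37 (adjusted p = 0.00278) and -0.33 (adjusted p = 0.00868) on the log2 scale, and the dimmer probe gave -0.18 (adjusted p = 0.215) and -0.25 (adjusted p = 0.117). Between the lines the level after N starvation was higher in AOpro(mut)-AO plants by 0.33 (adjusted p = 0.00399), with 0.20 to 0.48 on the 3 slides that held both groups, and the differences before N starvation and after resupply were -0.07 (adjusted p = 0.552) and -0.02 (adjusted p = 0.835).

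GLU1 encodes the main ferredoxin-dependent glutamate synthase of leaves, needed when photorespiration releases ammonium. Its level in AOpro(wt)-AO plants was 3.58, 3.49 and 3.56 before and 3.09, 3.07 and 3.21 after N starvation, a decrease of -0.42 (SE 0.11, adjusted p = 0.00561) with no overlap of the arrays. The levels in AOpro(mut)-AO plants were 3.20, 3.02 and 3.38 before and 3.35, 3.23 and 3.10 after N starvation, and the log2 difference was 0.03 (95% interval -0.22 to 0.27, adjusted p = 0.879). The interaction was 0.45 (adjusted p = 0.104).

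After resupply the levels of this gene were 3.13, 3.58 and 3.42 in AOpro(wt)-AO and 3.08, 3.33 and 3.32 in AOpro(mut)-AO plants, and the line AOpro(wt)-AO changed by 0.25 (adjusted p = 0.0811). With the slide as a block that change was 0.30 (adjusted p = 0.0108), and without resupplied replicate 1 it was 0.38 (adjusted p = 0.00947). Before N starvation the gene was lower in AOpro(mut)-AO plants by -0.34 (adjusted p = 0.0283), with no overlap of the arrays. This call was lost without replicate 1 (-0.33, adjusted p = 0.0754) or 3 (-0.33, adjusted p = 0.0727) of AOpro(wt)-AO plants or replicate 1 (-0.34, adjusted p = 0.066) or 2 (-0.26, adjusted p = 0.13) of AOpro(mut)-AO plants.

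GLU2, the ferredoxin-dependent form known mainly from roots, rose with N starvation in both lines. In AOpro(wt)-AO plants its level was 0.57, 0.51 and 0.53 before, 1.01, 1.06 and 1.01 after N starvation, and 0.65, 0.53 and 0.54 after resupply. AOpro(mut)-AO plants had 0.75, 0.60 and 0.76, then 1.06, 1.13 and 1.09, then 0.87, 0.86 and 0.73. The starved arrays of both lines lay above all others of the series.

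Its log2 difference with N starvation was 0.49 (SE 0.05, adjusted p = 5.38e-06) in AOpro(wt)-AO and 0.40 (SE 0.05, adjusted p = 0.000114) in AOpro(mut)-AO plants, and the interaction was -0.10 (95% interval -0.26 to 0.07, adjusted p = 0.459). KNO3 lowered it by -0.45 (adjusted p = 2.15e-05) and -0.27 (adjusted p = 0.00255), with an interaction of 0.18 (adjusted p = 0.186). The dimmer of its 2 probes gave rises of 0.59 and 0.47 and decreases of -0.57 and -0.46. GLU1 and GLU2 thus changed in opposite directions with N starvation in AOpro(wt)-AO plants.

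Between the lines GLU2 was higher in AOpro(mut)-AO plants by a log2 difference of 0.16 (adjusted p = 0.0306) before N starvation and 0.25 (adjusted p = 0.002) after resupply, with 0.07 (adjusted p = 0.33) in between. The first was 0.17 (adjusted p = 0.0687) with the slide as a block and was lost without replicate 2 (0.15, adjusted p = 0.0966) or 3 (0.16, adjusted p = 0.0746) of AOpro(wt)-AO plants or replicate 1 (0.14, adjusted p = 0.108) or 3 (0.13, adjusted p = 0.101) of AOpro(mut)-AO plants. The dimmer probe gave 0.15 (adjusted p = 0.162) before N starvation and 0.14 (adjusted p = 0.164) after resupply.

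GLT1 encodes the glutamate synthase that draws its electrons from NADH. Before N starvation its level was 1.82, 1.81 and 1.78 in AOpro(wt)-AO and 3.06, 3.17 and 3.05 in AOpro(mut)-AO plants, and after it 1.20, 1.15 and 1.04 against 3.09, 2.77 and 2.99. After resupply the levels were 1.81, 1.18 and 1.52 in AOpro(wt)-AO and 2.75, 2.78 and 2.67 in AOpro(mut)-AO plants. The lowest array of AOpro(mut)-AO plants, at 2.67, was above the highest of AOpro(wt)-AO plants, at 1.82, in the whole series.

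The log2 difference between the lines was 1.29 (SE 0.12, adjusted p = 9.56e-07) before N starvation, 1.82 (SE 0.12, adjusted p = 2.14e-08) after it and 1.23 (SE 0.12, adjusted p = 1.22e-06) after resupply. Its 3 probes gave 1.29 to 1.34, 1.79 to 1.84 and 1.06 to 1.23. Within slides the difference was 1.24 and 1.26, 1.62 to 1.95 and 0.93 and 1.15 at the 3 stages.

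This gene lies within a stretch of chromosome 5, from AT5G49520 to AT5G61610, whose genes were higher in AOpro(mut)-AO plants as a group. The median log2 difference of the 1034 tested genes in it was 0.92, 0.93 and 0.95 at the 3 stages, against -0.03, -0.02 and -0.01 for all other genes. The bounds of the stretch came from earlier results of these same data, so these medians describe the stretch and do not test it. Of the 20 tested genes nearest to GLT1, from AT5G53340 to AT5G53570, 18 were called higher at each stage, with medians of 0.80, 0.79 and 0.87. The difference of GLT1 was above that of all 20 neighbours before N starvation, of all but 1 after it and of all but 2 after resupply. How much of its level in AOpro(mut)-AO plants goes with the stretch was not tested. Of the other members on chromosome 5, none lies in the stretch.

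**Figure D4:**
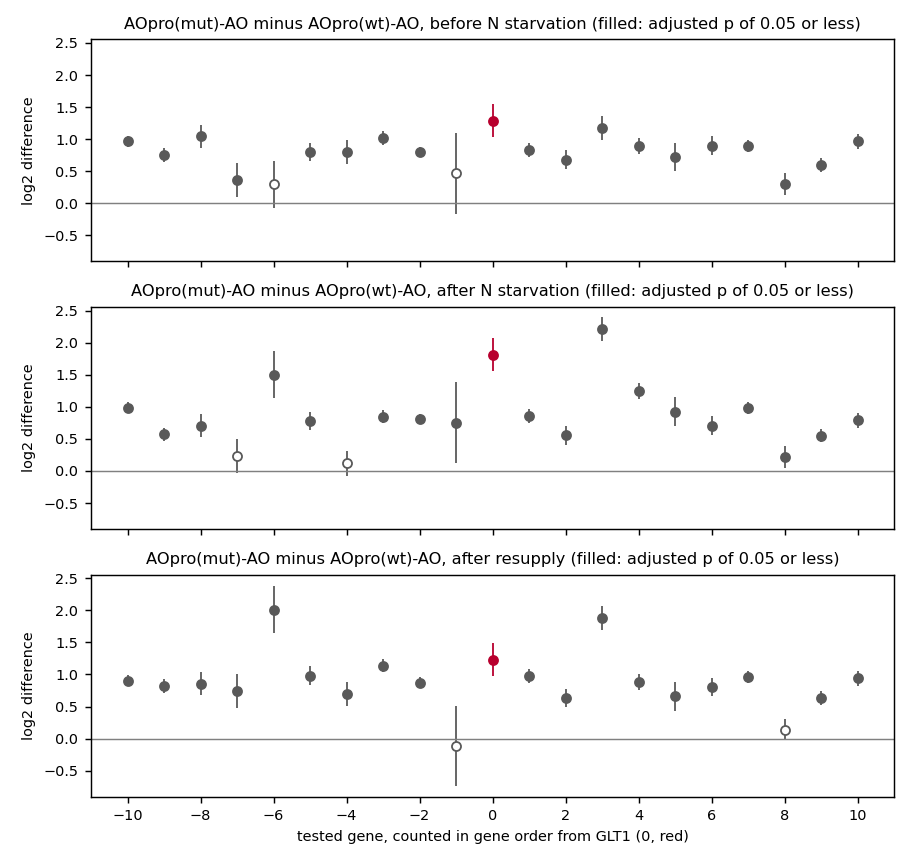
Fitted log2 difference between AOpro(mut)-AO and AOpro(wt)-AO plants with its 95% interval (y axis) for GLT1 (red, at 0) and the 10 tested genes on either side of it in gene order (x axis), at the 3 stages from top to bottom, filled where the adjusted p was 0.05 or less. In each panel 18 of the 20 neighbours are filled and above 0, with medians of 0.80, 0.79 and 0.87.

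Within AOpro(wt)-AO plants GLT1 fell with N starvation by a log2 difference of -0.67 (SE 0.12, adjusted p = 0.000268), with no overlap of the arrays, and in AOpro(mut)-AO plants the difference was -0.15 (95% interval -0.40 to 0.11, adjusted p = 0.356). The interaction was 0.53 (unadjusted p = 0.00755, adjusted p = 0.0745) and was not called. With only the arrays compared in the model it was 0.53 (unadjusted p = 0.000719, adjusted p = 0.0204) and passed. The 20 neighbours had a median interaction of -0.03, and 2 of them were above GLT1, and the median change of the whole stretch with N starvation in AOpro(wt)-AO plants was -0.02.

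With KNO3 GLT1 rose by 0.37 (adjusted p = 0.0195) in AOpro(wt)-AO plants, where the resupplied and starved arrays overlapped, and had a difference of -0.21 (adjusted p = 0.203) in AOpro(mut)-AO plants. The rise was lost under normexp background correction (0.23, adjusted p = 0.346), with array weights (0.25, adjusted p = 0.0616), and without starved replicate 3 (0.33, adjusted p = 0.0704) or resupplied replicate 1 (0.22, adjusted p = 0.0875) or 3 (0.36, adjusted p = 0.0507). It was also lost with only the arrays compared (0.37, adjusted p = 0.117) and on probe 2 (0.37, adjusted p = 0.0548). The interaction with resupply was -0.59 (unadjusted p = 0.00365, adjusted p = 0.0559) on the brightest probe and was not called. It was -0.78 (adjusted p = 0.0483) on probe 2 and -0.68 (adjusted p = 0.0913) on probe 3. Without resupplied AOpro(wt)-AO replicate 2 the brightest probe gave -0.75 (unadjusted p = 5.05e-05, adjusted p = 0.0104), which passed.

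Resupplied plants were also set against unstarved plants of the same line, as a test of return. In AOpro(wt)-AO plants 1 member was called, GS2, where 42.4% of all genes were called, 17% higher and 25.3% lower, and in AOpro(mut)-AO plants 4 were called, 2 higher and 2 lower, against 32.5%, 14.3% higher and 18.2% lower. In limma 0 members also reached a log2 difference of 1 in either line (3.38% and 3.37% of all genes), with 3 and 6 members at an unadjusted p of 0.05 or less. GLT1 was lower than before N starvation by -0.36 (adjusted p = 0.0339) in AOpro(mut)-AO plants, and by -0.30 (adjusted p = 0.0589) in AOpro(wt)-AO plants. The call in AOpro(mut)-AO plants was lost with any 1 of its 6 arrays left out (-0.38 to -0.32), although probes 2 and 3 gave -0.67 (adjusted p = 0.00463) and -0.77 (adjusted p = 0.00304). In AOpro(wt)-AO plants the difference was -0.45 (adjusted p = 0.00374) without resupplied replicate 1, the highest of its group at 1.81, and -0.45 (adjusted p = 0.00269) with array weights. Probe 2 gave -0.40 (adjusted p = 0.0476) in that line. The arrays of probe 3 did not overlap there, with means of -2.33 before N starvation and -2.91 after resupply.

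**Figure D5:**
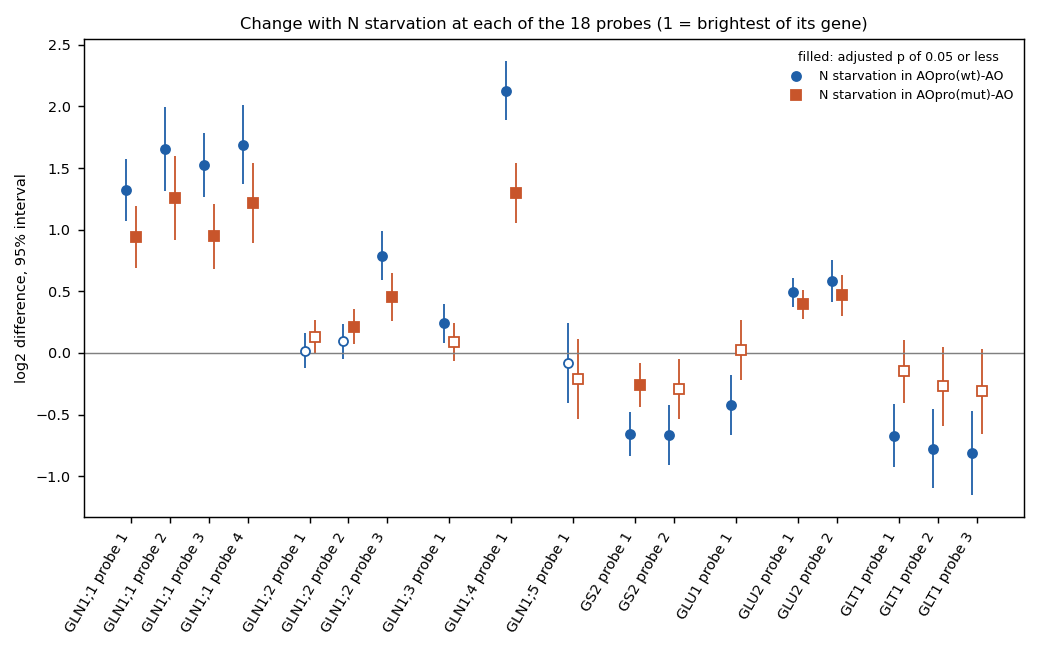
Fitted log2 difference with N starvation and its 95% interval (y axis) at each of the 18 probes of the 9 genes (x axis, numbered from the brightest of each gene) in AOpro(wt)-AO (blue circles) and AOpro(mut)-AO (orange squares) plants, filled where the adjusted p was 0.05 or less. Probes of a gene lie close together except in the second gene from the left, where the values in blue are 0.02, 0.09 and 0.79.

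The genes that feed the cycle were described by lists. Nitrate reductases NIA1 and NIA2 and nitrite reductase NIR1, which supply ammonium from nitrate, fell in 3 of 3 cases with N starvation in AOpro(wt)-AO plants (log2 differences -1.60, -0.99 and -1.70) and in 1 of 3 in AOpro(mut)-AO plants (NIR1, -0.40), against 31.9% and 23.6% of all genes. With KNO3 all 3 rose in AOpro(wt)-AO plants (0.78, 0.98 and 1.05) and 1 in AOpro(mut)-AO plants (NIA2, 0.30), against 23.3% and 14.6% of all genes. The interaction reached an adjusted p of 0.05 or less for all 3 with N starvation (NIA1 1.41, NIR1 1.302, NIA2 1.02), all higher, as for 7.75% of all genes (4.65% higher and 3.1% lower), and for all 3 with resupply (NIR1 -0.997, NIA2 -0.68, NIA1 -0.67), all lower, as for 6.15% of all genes (3.27% higher and 2.89% lower). These 3 genes fell with N starvation as GS2, GLU1 and GLT1 did in AOpro(wt)-AO plants, in the same direction and by more.

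Photorespiratory enzymes, whose cycle releases the ammonium that GS2 and GLU1 recapture, fell in 11 of 13 cases with N starvation in AOpro(wt)-AO plants, with a median log2 difference of -0.38 (all genes -0.01), and in 3 of 13 in AOpro(mut)-AO plants, with a median of -0.03, against 31.9% and 23.6% of all genes, so that the latter count lies at the background. The interaction with N starvation reached an adjusted p of 0.05 or less for 1 of the 13, GLYK (0.35), where 7.75% of all genes did. That with resupply did so for 0 in limma (6.15% of all genes), with 2 at an unadjusted p of 0.05 or less. A difference between the lines was thus not called for most of these genes. GLDT, the T protein of glycine decarboxylase, fell most in both (-0.71 and -0.29). Before N starvation 10 of 13 were lower in AOpro(mut)-AO plants, against 19.5% of all genes, with GLDP2 at -0.72 and GOX1 at -0.51, at the stage at which GLU1 was lower by -0.34 and GS2 had a difference of -0.07. With KNO3 3 of 13 rose in AOpro(wt)-AO plants (PGLP1 by 0.46), against 23.3% of all genes, and 0 of 13 were called in AOpro(mut)-AO plants in limma, where 1 had an unadjusted p of 0.05 or less.

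Of 7 genes of ferredoxin and its reductases, which hand electrons to GLU1 and GLU2, 6 fell with N starvation in AOpro(wt)-AO plants, FD1 by -0.73, and 1 in AOpro(mut)-AO plants, LFNR2 by -0.25, against 31.9% and 23.6% of all genes. The interaction with N starvation reached an adjusted p of 0.05 or less for 1 of the 7, FD1 (0.50), where 7.75% of all genes did. That with resupply did so for 0 in limma (6.15% of all genes), with 3 at an unadjusted p of 0.05 or less. With KNO3 3 rose in AOpro(wt)-AO plants (FD1 by 0.46, 23.3% of all genes) and 0 were called in AOpro(mut)-AO plants in limma, with 0 at an unadjusted p of 0.05 or less. A list of 7 genes covered the supply of 2-oxoglutarate, its exchange across the plastid envelope and the PII signalling protein GLB1. With N starvation 4 of them fell and 1 rose in AOpro(wt)-AO plants, led by the 2-oxoglutarate and malate translocator DiT1 at -1.10. In AOpro(mut)-AO plants 3 fell, DiT1 by -0.32. Of all genes 31.9% and 23.6% fell in the lines. The interaction reached an adjusted p of 0.05 or less for 3 of these 7 genes with each treatment, against 7.75% and 6.15% of all genes. The interaction of DiT1 was 0.78 (adjusted p = 0.00789) with N starvation and -0.60 (adjusted p = 0.026) with resupply.

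Of 6 genes for glutamate dehydrogenases and asparagine synthetases, which release ammonium from glutamate or move the amide of glutamine to asparagine, 3 fell and 1 rose with N starvation in AOpro(wt)-AO plants, ASN2 by -2.28 and ASN1 by 1.09, and 3 fell in AOpro(mut)-AO plants, ASN2 by -1.04, where 31.9% and 23.6% of all genes fell. The interaction with N starvation reached an adjusted p of 0.05 or less for 1 of the 6, ASN2 (1.23, adjusted p = 0.00244), where 7.75% of all genes did. That with resupply did so for 2, ASN2 (-0.97) and ASN3 (0.55), where 6.15% of all genes did. With KNO3 2 of the 6 were called higher and 2 lower in AOpro(wt)-AO plants, against 23.3% and 25% of all genes. In AOpro(mut)-AO plants 2 were called higher and 1 lower, against 14.6% and 12.9%. ASN1 rose by 1.27 and 1.68 and ASN2 by 1.33 and 0.36 in the lines. Of 6 ammonium transporter genes 4 rose in AOpro(wt)-AO and 2 in AOpro(mut)-AO plants with N starvation, and 4 and 3 fell with KNO3, all by less than 1 on the log2 scale. Of all genes 28% and 17.8% rose with N starvation and 25% and 12.9% fell with KNO3. The interaction reached an adjusted p of 0.05 or less in limma for 0 of the 6 with either treatment (7.75% and 6.15% of all genes). In each, 1 had an unadjusted p of 0.05 or less.

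Over the 18 arrays GLN1;1 and GLN1;4 had a Pearson's r of 0.970, and GS2 had -0.846 with GLN1;3 and -0.786 with GLN1;4. The points are the arrays of 6 groups, so for members that differed between groups such values describe the differences already given. The gene outside the family whose profile was most like those of both GLN1;1 (r = 0.981) and GLN1;4 (r = 0.988) was AT4G17670, followed by BZO2H1, a bZIP transcription factor (0.980), and AT5G11930 (0.985), respectively. GS2 was followed most closely by AT1G57610 (0.972) and PSRP6, a protein of the plastid ribosome (0.963), GLU1 by AT4G18810 (0.914) and ZKT (0.912), and GLU2 by AT1G12320 (0.950) and CAX7 (0.949). For GLT1 they were HCF208 (0.985) and AT5G54880 (0.984), both in the stretch of chromosome 5 named above, for GLN1;2 LHCB2.1 (0.923) and AT1G05710 (0.921), for GLN1;3 AT2G37750 (0.861) and RAX2 (0.857), and for GLN1;5 INVH (0.667) and BOA (0.651). GLN1;5 was called in no comparison, so its values describe no called difference between groups. They are the highest over all genes compared, and whether they exceed what array noise alone gives was not tested.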

How the data were processed

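The deposited scanner files, 1 per array, give probe intensity on a linear scale, which the authors' software (Agilent Feature Extraction 12.1.1.1 in the file headers, another version in the methods) had background-corrected, and other columns, deposited 0 or 1 flags among them. The deposited series matrix holds the authors' normalized intensity, whose normalization is not given in the sources used here and which was proportional to the processed signal within each array (ratio spread 0.794%). The deposited files pair probes with transcript accessions, and 36163 of 43603 probes were matched through RefSeq (TAIR10.1) to 26716 genes. Probe sequences were not used here.

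From the log2 of that signal, spots marked as outliers (between 3 and 91 on an array) were dropped, the spots of a probe averaged, and the array's 75th percentile subtracted. Probes well above background on all arrays of at least 1 group were tested (29416 probes of 21060 genes). The fit was limma on all 18 arrays (6 group means, empirical Bayes, 12 residual degrees of freedom). The methods' thresholds are an absolute log2 difference of 1 with an adjusted p of 0.05, and an unadjusted p of 0.001 for interactions. Here the adjusted p alone makes a call, with the stricter count beside it.

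All members with every probe are named, for each member the 2 genes of highest r outside the family, and at most 4 genes of a pathway list in a comparison, largest change first. Members and lists were chosen with earlier results of these data known. Replicates are separate pools of plants according to the methods. Their numbers did not pair the arrays (correlation of deviations over 45 same-numbered pairs -0.221 to 0.306, median 0.0217). The arrays lie on 5 slides. The code was tested on simulated data. The tools were R 4.3.3, limma 3.58.1, jsonlite 2.0.0, the data.table package (1.17.8), Python 3.11.15, numpy 2.4.6 and matplotlib 3.10.9. Alternatives were normexp background correction (offset 50, on the median raw signal), quantile normalization, series matrix values, outlier spots kept, other filters on dim probes, only the arrays compared, array weights, the replicate number or slide as a block, the next brightest probe, and each array left out.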

Additional observations from a re-analysis of the deposited data

Results flagged for a closer look

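The cytosolic glutamine synthetase gene GLN1;4 responded differently in the lines by the test of the difference itself. Its interaction was -0.83 (adjusted p = 0.0106) with N starvation and 1.12 (adjusted p = 0.00209) with KNO3 resupply, that is, both the rise and the following decrease were smaller in AOpro(mut)-AO plants. With single arrays left out the values lay between -0.94 and -0.74 and between 1.04 and 1.18, and with the slide as a block they were -0.83 (adjusted p = 0.0295) and 1.06 (adjusted p = 0.0171). Of the 3 flower markers 2 were called higher in the same plants at each stage, and 1 was called lower before N starvation. The nitrate reduction genes moved less in these plants. The part of the flower markers and of the nitrate reduction genes was not tested.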

How the results depend on the processing

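Under the settings other than leaving out an array, 1040 of 1089 values of a member in a comparison kept direction and side of the threshold, 33 lost and 16 gained the call, and 0 turned direction while called. With single arrays left out 659 of 702 did so, with 35 lost and 8 gained. The number of members called changed by over 1.5 times as follows. Normexp background correction gave 3 before N starvation and 2 after resupply between the lines, 3 with resupply in AOpro(wt)-AO plants and 0 for resupplied against unstarved AOpro(mut)-AO plants. Quantile normalization and array weights each gave 2 for resupplied against unstarved AOpro(wt)-AO plants, the next brightest probe 3 between the lines after resupply, and array weights and the fit to only the arrays compared 2 for the interaction with N starvation. With a log2 difference of at least 1 the counts were 1, 2 and 1 between the lines at the 3 stages, 2 and 1 with N starvation, 2 and 0 with resupply, and 0 and 0 for resupplied against unstarved plants, the AOpro(wt)-AO line first. With single arrays left out the counts ran from 3 to 4, 5 to 6 and 4 to 4 between the lines, 6 to 7 and 3 to 5 with N starvation, 4 to 5 and 3 to 3 with resupply, 1 to 2 and 2 to 4 for resupplied against unstarved plants, and 1 to 2 for each interaction. The replicate number as a block left the counts at 5, 6 and 5 between the lines, 7 and 4 with N starvation, 5 and 3 with resupply, 1 and 4 for resupplied against unstarved plants and 1 for each interaction, and no member call changed under it. Normexp background correction shifted the median of all genes by between -0.0973 and 0.0968 on the log2 scale, and quantile normalization by between -0.0280 and 0.0183. With 3 arrays per group the number of arrays limits the precision.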
